A study of Mus musculus with 12 samples.

Results

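The genes described here are Rn7sk, which encodes the 7SK RNA, Cdk13, which encodes a cyclin-dependent kinase (CDK) of transcription, and Ccnk, which encodes its partner cyclin K. They were chosen by symbol and make up 3 of the 11669 genes in the deposited table. RNA had been sequenced from 12 mouse libraries, 3 for each of 4 treatments of 24 h: the vehicle PBS, the particle NP@M, and the particles NP-D@MP and NP-D@M. The cells are called TAMC under the cell line tag, with immune cell as cell type and marrow as tissue, and the labels give neither strain nor age. The study concerns nanodrugs wrapped in an engineered cancer cell membrane and aimed at CDKs, used with a PD-L1 antibody, but the labels do not spell out NP, D, M or P. NP-D@M and NP-D@MP are called the groups with D below, and PBS and NP@M the groups without D. Separate cultures or animals behind the libraries of a group are not stated, so the tests measure library-to-library spread, which may be technical.

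7SK is a non-coding RNA made by RNA polymerase III. Bound by the proteins LARP7 and MEPCE, it holds P-TEFb, the kinase that releases paused RNA polymerase II, in an inactive form through HEXIM proteins, and cells under transcriptional stress free P-TEFb from it. Cyclin K pairs with CDK12 or CDK13, and these kinases phosphorylate the tail of RNA polymerase II during elongation. Cyclin K complexes are known for sustaining the expression of long genes and of DNA repair genes.

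Rn7sk (ENSMUSG00000065037) lies on the minus strand of chromosome 9 from 78175303 to 78175633 (GRCm38) and is annotated as 1 exon of 331 bases without introns. The first 100 bases of the GENCODE transcript are shown, 5′ to 3′ with T for U, because they hold the sites by which 7SK is known to bind HEXIM proteins. Capitals mark the motif GATC, which is its own reverse complement and which in the 5′ hairpin of 7SK is known as part of the HEXIM binding site.

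Rn7sk, bases 1 to 100, chr9:78175534-78175633, minus strand: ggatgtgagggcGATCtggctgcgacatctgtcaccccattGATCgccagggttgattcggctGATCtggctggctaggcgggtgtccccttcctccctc

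GATC occurred 3 times, in the whole RNA, starting at bases 13, 42 and 64. The capitals show the motif only, and which copies bind HEXIM proteins was not tested. Of 4745 GENCODE transcripts of 301 to 361 bases, 66.4% held the motif at least once and 9.06% at least 3 times. Of the 282 windows of 50 bases in Rn7sk, 192 also occurred on the same strand in 7 other annotated transcripts. Reads of Rn7sk can therefore be shared with 7SK-related copies, and how such reads were counted is not given in the sources used here.

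Cdk13 (ENSMUSG00000041297) spans 94783 bases of chromosome 13, from 17710315 to 17805097 on the minus strand, with 13456 bases of exons. Ccnk (ENSMUSG00000021258) spans 23781 bases of chromosome 12, from 108179579 to 108203359 on the plus strand, with 3042 bases of exons. Values are given as FPKM, the fragments per kilobase scaled by a library size of the authors, and as reads, the whole read counts that these values contain. The 2 differ because the authors' values had been divided by a library size of 2.19 to 2.36 times the recovered reads without D and 0.468 to 0.553 times with D. A value with D is thereby raised relative to one without D, and changes are therefore given on both scales.

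The recovered reads numbered 14444950 to 17338264 per library. Replicate 3 of PBS and replicate 2 of NP@M stood apart: 9.31% and 9.11% of genes had a value of 0, while the remaining 4 libraries without D had 2.65% to 2.96%. Of 7 retina markers, listed because the extraction protocol speaks of retinas, 0 are in the table. Among all tested genes in NP-D@M against NP@M, limma called 45.2% higher and 46.0% lower with the deposited scaling, and 9.12% higher and 61.7% lower with values scaled to the recovered read totals. Markers of monocytes and macrophages took 1.06% to 1.52% of the reads without D and 2.39% to 2.90% with D, and 9 of 9 tested (10 listed, 10 in the table) rose in NP-D@M against NP@M with the deposited scaling. Markers of neutrophils and granulocyte precursors took 0.0851% to 0.247% without D and 0.0373% to 0.107% with D, with 1 that rose and 3 that fell of 8 tested (10 listed, 8 in the table). Markers of megakaryocytes and platelets took 0.0998% to 0.229% and 0.829% to 1.12%, with 4 of 4 tested that rose (6 listed, 5 in the table). With the read totals, 5 of the 9 monocyte and macrophage markers rose and 2 fell, 0 of the 8 neutrophil markers rose and 8 fell, and 2 of the 4 megakaryocyte markers rose and 1 fell. Their part in the results was not tested. In such bulk RNA, fewer cells of a type and less RNA per cell cannot be told apart.

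Rn7sk was almost without reads in the libraries without D and abundant in those with D. Its reads were 6, 0 and 12 in PBS and 3, 0 and 1 in NP@M. With D they were 306, 242 and 625 (NP-D@M) and 258, 822 and 634 (NP-D@MP). Every library with D was above every library without D, and the lowest of them held 242 reads against at most 12. A count of 0 allows up to 3 reads, by counting error only.

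In FPKM, Rn7sk stood at 0.558 ± 0.574 for PBS, 0.112 ± 0.131 for NP@M, 138 ± 65.5 for NP-D@M and 212 ± 111 for NP-D@MP (SD, n = 3). In the libraries with D it ranked between 396 and 800 among the 11669 genes by FPKM, and in those without D between 7189 and 11361. The spread within the groups with D was wide, and in NP-D@MP the highest library had 3.19 times the reads of the lowest.

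**Figure D1:**
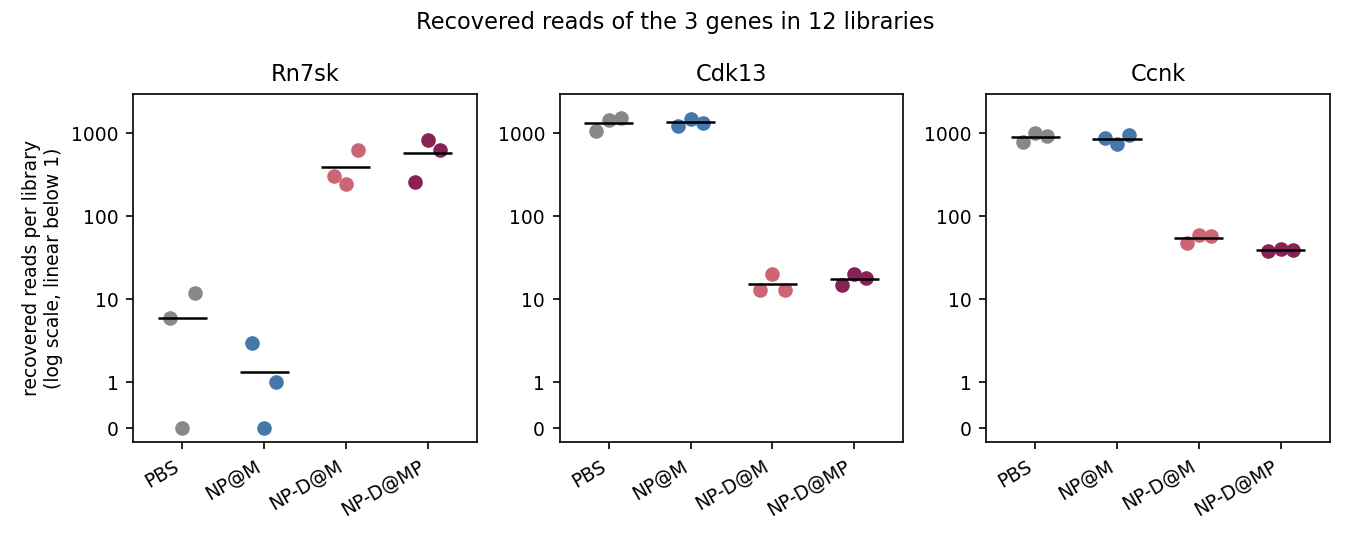
Recovered reads (vertical axis, log scale that turns linear below 1) of Rn7sk, Cdk13 and Ccnk in each library by treatment group, with 1 point per library and a line at the group mean (n = 3). Rn7sk sits at 0 to 12 reads without D and 242 to 822 with D, Cdk13 at 1057 to 1512 and 13 to 20, and Ccnk at 739 to 995 and 38 to 60.

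Cdk13 moved the other way. Its reads were 1057, 1421 and 1512 in PBS and 1211, 1481 and 1339 in NP@M. With D they were 13, 20 and 13 (NP-D@M) and 15, 20 and 18 (NP-D@MP). No library with D held more than 20 reads over the 13456 bases of exons, and the groups with and without D did not overlap. In FPKM, Cdk13 stood at 2.87 ± 0.641 for PBS, 2.77 ± 0.312 for NP@M, 0.137 ± 0.0457 for NP-D@M and 0.160 ± 0.0288 for NP-D@MP (SD, n = 3).

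Ccnk was lower with D as well. Its reads were 782, 995 and 913 in PBS and 865, 739 and 940 in NP@M. With D they were 47, 60 and 58 (NP-D@M) and 38, 40 and 39 (NP-D@MP). All 6 libraries with D lay below all 6 without D, and the 3 NP-D@MP libraries also lay below the 3 NP-D@M libraries. The latter split is of 3 against 3 libraries, which cannot give an exact p below 0.1. Of the 74 genes of the pathway lists below that are in the table, 62 had reads with D all below those without D. In 2 they lay all above, and in 10 they overlapped. The share over all genes is not given here. In FPKM, Ccnk stood at 8.51 ± 1.01 for PBS, 7.72 ± 0.711 for NP@M, 2.15 ± 0.364 for NP-D@M and 1.56 ± 0.112 for NP-D@MP (SD, n = 3). Per length, the order of the genes without D was Ccnk above Cdk13 above Rn7sk in each of the 6 libraries, and with D it was Rn7sk above Ccnk above Cdk13 in each of the 6.

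NP-D@M was set against NP@M to see which levels change when D is part of the particle's name. By limma, Rn7sk rose by 6.87 on the log2 scale (SE 0.46, adjusted p = 2.64e-07, all 3 libraries higher), the second highest of 8615 tested genes. Cdk13 fell with -1.73 (SE 0.14, adjusted p = 9.04e-07, lower in 3 of 3) and Ccnk with -1.47 (SE 0.15, adjusted p = 4.91e-06, lower in 3 of 3). These calls stand against a background in which 91.2% of the tested genes were called, 45.2% higher and 46.0% lower, so a call alone sets none of the 3 apart. Rn7sk passed the filter on low values only through libraries with D, apart from 1 PBS library, and Cdk13 only through those without D. Scaled to the recovered reads, Rn7sk stood at 5.78 (adjusted p = 2.04e-06), Cdk13 at -2.80 (adjusted p = 1.40e-08) and Ccnk at -3.17 (adjusted p = 5.06e-09). On that scale 70.8% of the tested genes were called, 9.12% higher and 61.7% lower, and the median log2 fold change of all tested genes moved from 0.16 to -1.47.

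Log2 fold changes here are those of FPKM + 1, which holds in the change of a gene that falls below 1, as Cdk13 did. The mean FPKM of Cdk13 was 20.3-fold lower in NP-D@M than in NP@M, and that of Ccnk 3.59-fold lower. As a share of all recovered reads, Cdk13 was 92.2-fold lower in the pooled NP-D@M libraries (46 reads against 4031, exact 95% interval 69.0 to 126) and Ccnk 16.2-fold lower (165 against 2544, 13.9 to 19.1). Rn7sk was 279-fold higher (1173 reads against 4, 109 to 1025). These intervals cover counting error only and are too narrow for the spread between libraries. By this ratio 8.67% of the tested genes fell further than Cdk13 and 34.4% further than Ccnk, while 0.522% rose further than Rn7sk. The median tested gene was 3.90-fold lower.

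**Figure D2:**
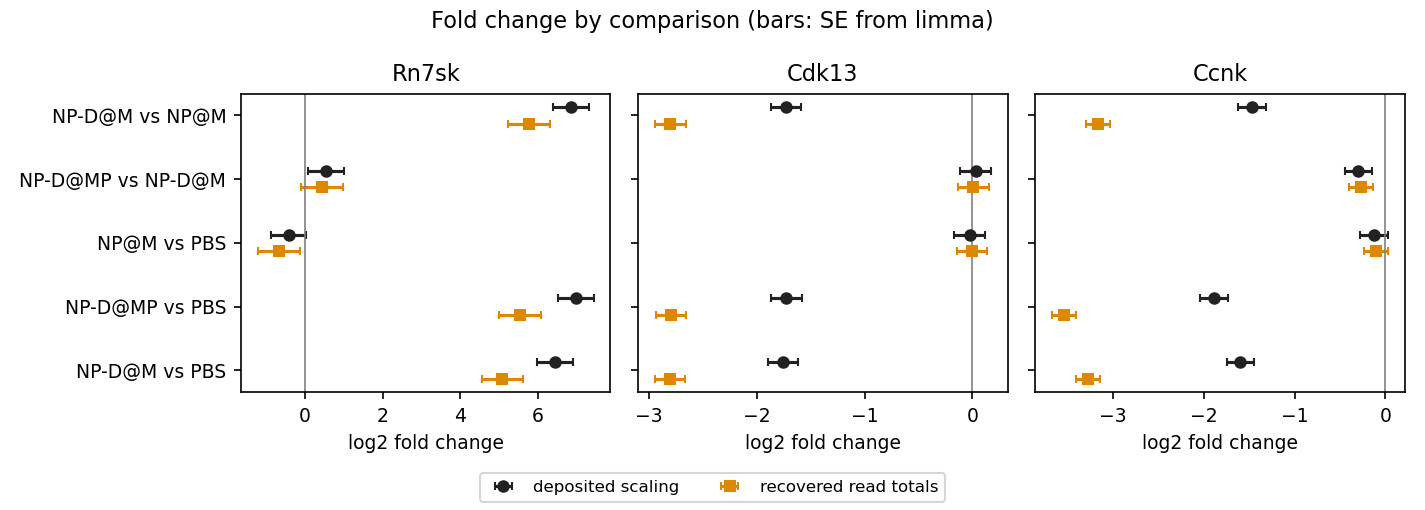
Log2 fold changes of FPKM + 1 (horizontal axis, bars are the SE from limma, n = 3 libraries per group) of the 3 genes in 5 comparisons, with the deposited scaling (black circles) and scaled to recovered read totals (orange squares). The 3 comparisons of a group with D against one without D lie far from 0 in each gene under both scalings, and the other 2 lie near 0.

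The comparisons with PBS ask how each particle with D differs from the vehicle, and they share their PBS libraries. In NP-D@MP against PBS, Rn7sk rose by 6.99 (SE 0.46, adjusted p = 2.45e-07), Cdk13 changed by -1.73 (SE 0.14, adjusted p = 9.11e-07) and Ccnk by -1.89 (SE 0.15, adjusted p = 8.23e-07), by limma, where 91.5% of the tested genes were called, 45.7% higher and 45.8% lower. As a share of reads, Cdk13 was 84.5-fold lower (64.4 to 113) and Ccnk 25.8-fold lower (21.4 to 31.3), and Rn7sk was 84.9-fold higher (53.5 to 144). In NP-D@M against PBS the limma log2 fold changes were 6.45 for Rn7sk (adjusted p = 4.10e-07), -1.75 for Cdk13 (adjusted p = 8.39e-07) and -1.60 for Ccnk (adjusted p = 2.77e-06), where 90.4% were called, 44.6% higher and 45.8% lower. The 3 genes kept these directions and calls with the recovered read totals, where 71.4% of the tested genes were called in NP-D@MP against PBS (9.01% higher, 62.4% lower) and 70.6% in NP-D@M against PBS (8.94% higher, 61.6% lower).

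NP@M, the particle without D, was not distinguishable from PBS in any of the 3 genes. The limma log2 fold changes were -0.42 for Rn7sk (SE 0.46), -0.026 for Cdk13 (SE 0.14) and -0.12 for Ccnk (SE 0.15), each with adjusted p = 1. The groups overlapped in all 3, and 0.0116% of the tested genes were called. As a share of reads Cdk13 was at 0.989 times its PBS level (0.947 to 1.03) and Ccnk at 0.926 times (0.877 to 0.978). For Rn7sk the comparison rests on 4 reads against 18, of which 12 came from PBS replicate 3, a library that stood apart.

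NP-D@MP was compared with NP-D@M to see what differs with P in the name. By limma, 0% of the tested genes were called, and voom on the recovered reads called 1 gene. Of the 8615 tested genes, 428 had an unadjusted limma p under 0.05, where a share of 0.05 is expected with no difference. Rn7sk stood at 0.54 (SE 0.46, adjusted p = 1) with overlapping groups, and leaving out 1 library moved this value between 0.20 and 1.08, the latter without NP-D@MP replicate 1. Cdk13 stood at 0.030 (SE 0.14, adjusted p = 1) with overlapping groups. Ccnk stood at -0.30 (SE 0.15, unadjusted p = 0.0786, adjusted p = 1) and was lower in 3 of 3 libraries, at 0.679 times the read share of NP-D@M (117 reads against 165, counting interval 0.531 to 0.866). This difference in Ccnk did not pass the test.

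Ratios of genes within a library do not depend on the factor that the authors applied between libraries. The log2 ratio of Rn7sk to Cdk13, from reads + 1 per kilobase, was -3.44 ± 1.59 without D and 9.99 ± 0.770 with D (SD, n = 6). That of Rn7sk to Ccnk was -4.98 ± 1.53 without D and 6.39 ± 0.881 with D (SD, n = 6). The differences of 13.4 and 11.4 each had p = 0.00216 in the 2-sided exact permutation test over 924 splits. This is the smallest p that 6 against 6 libraries can give, and it was 0.00216 after adjustment over the 3 ratios computed. Each side pools libraries of different treatments. Rn7sk on one side and Cdk13 and Ccnk on the other already separated the libraries in opposite directions. The p was thereby fixed beforehand and is not given as support.

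The ratio of Cdk13 to Ccnk was added after its values were seen and is given as a description. It entered the adjustment above, but its own p is not given. Its log2 value was -1.53 ± 0.216 without D and -3.60 ± 0.427 with D (SD, n = 6), a difference of -2.06, and the 6 libraries with D all lay below the 6 without D. From FPKM + 0.1 the difference was -1.47. With D it ran from -4.22 to -3.68 in NP-D@M and from -3.43 to -3.11 in NP-D@MP. The NP-D@MP libraries were all above the NP-D@M libraries in this ratio, and 3 against 3 libraries cannot give an exact p below 0.1.

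**Figure D3:**
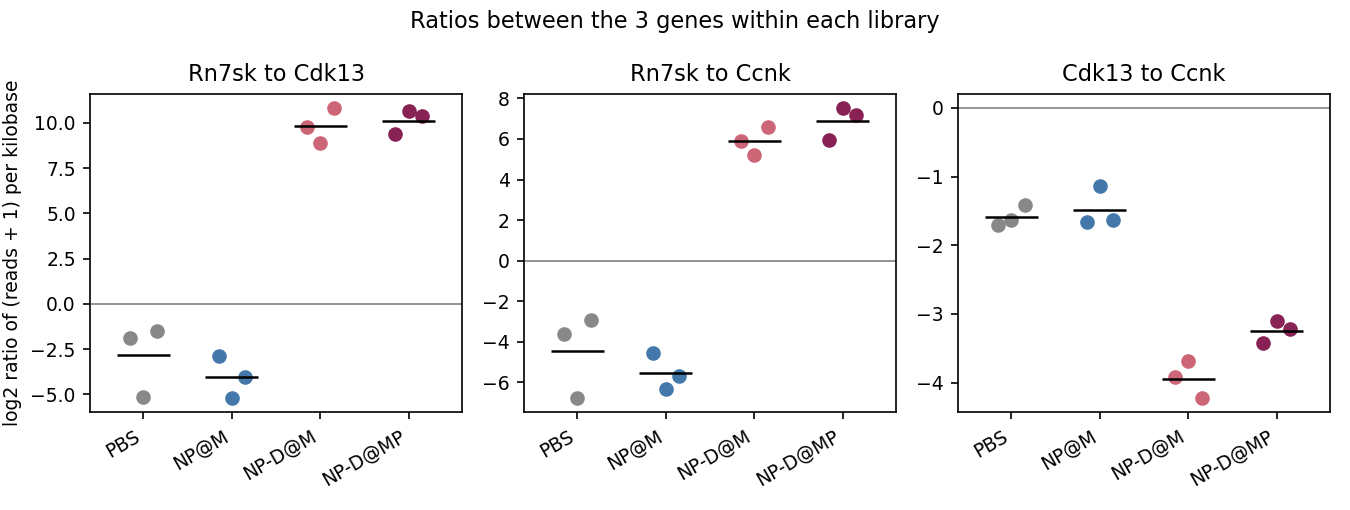
Log2 ratios of (reads + 1) per kilobase between the 3 genes within each library (vertical axis), by group, with 1 point per library and a line at the group mean (n = 3). Both ratios of Rn7sk lie below 0 in all 6 libraries without D and above 0 in all 6 with D, and the ratio of Cdk13 to Ccnk averages -1.53 without D and -3.60 with D.

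Transcripts for proteins of the 7SK particle were tested for 2 of 4 listed genes, with 1 that fell and 1 without a call, beside 46.0% of all tested genes that fell. Mepce, Hexim1 and Hexim2 were in the table. Mepce, which caps 7SK, fell in NP-D@M against NP@M with a log2 fold change of -0.96 (adjusted p = 0.038 by limma), from 492 to 875 reads in NP@M to 47 to 105. Hexim1, which inhibits P-TEFb when bound to 7SK, changed by -0.61 (SE 0.34, adjusted p = 0.107) and was not called with the deposited scaling. With the read totals both were called lower, at -2.64 and -2.32, beside 61.7% of all tested genes. Without the pair of libraries that stood apart both were called lower too. Hexim2 was below the filter on low values, with 26 to 89 reads without D and 0 to 7 with D. Of the hnRNP proteins that take up 7SK when P-TEFb leaves it, Hnrnpa2b1 rose by 1.52, Syncrip changed by -0.84 and Hnrnpa1 by 0.36 (adjusted p = 0.104, not called). With the read totals all 3 were called lower, beside 61.7% of all tested genes, so the rise of Hnrnpa2b1 turned to -0.59.

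P-TEFb and the super elongation complex, which 7SK holds back and which carries P-TEFb to genes, fell in most tested members. Of 7 tested (11 listed, 8 in the table), 6 fell and 1 rose, beside 46.0% and 45.2% of all tested genes, and the median log2 fold change was -2.38 beside 0.16 over all tested genes. The scaffold gene Aff1 went from 2514 to 5213 reads in NP@M to 33 to 43 in NP-D@M (log2 fold change -2.93, adjusted p = 2.34e-06 by limma), and Mllt1, a reader of acylated histones, changed by -2.41. Ccnt1, the cyclin of P-TEFb, named after its values were seen, fell from 841 to 2080 reads to 6 to 17, with -2.03 (adjusted p = 8.14e-05). Members with few reads with D, such as Ccnt1, can have passed the filter on low values only through libraries without D. Calls of such members in any of the lists are not given as support. The member that rose was Eaf1, a partner of the ELL proteins, at 0.83, and it turned to -1.24 with the read totals, where all 7 were called lower beside 61.7% of all tested genes.

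Factors of pausing and elongation showed 9 that fell and 2 that rose of 13 tested (15 listed, 14 in the table), beside 46.0% and 45.2% of all tested genes, with a median of -1.23. Supt6, a histone chaperone of elongation, changed by -1.97, Nelfb, a subunit of the pausing factor NELF, by -2.18 and Rtf1, which works with the PAF1 complex, by -1.45. The 2 that rose were Supt4a, the small subunit of DSIF, at 1.49 and the histone chaperone gene Ssrp1 at 0.87. With the read totals 12 fell and 0 rose, beside 61.7% and 9.12% of all tested genes, with Ssrp1 at -1.22 and Supt4a at -0.59 (adjusted p = 0.0538).

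Other transcriptional CDKs and cyclins showed 6 that fell and 1 that rose of 7 tested (12 listed, 7 in the table), beside 46.0% and 45.2% of all tested genes, with a median of -0.95. Cdk12, the paralog of Cdk13 that shares cyclin K, had 726, 1073 and 966 reads in NP@M and 36, 33 and 22 in NP-D@M. All its libraries with D lay below all those without D, as in 62 of the 74 pathway genes in the table. By limma it stood at -1.27 on the log2 scale (SE 0.16, adjusted p = 2.38e-05). Like Cdk13, it passed the filter on low values only through libraries without D. As a share of reads it was 32.0-fold lower. Ccnl1, the cyclin of CDK11 kinases, changed by -1.32 and Cdk7, a kinase of the initiation factor TFIIH, by -1.18. Cdk10 rose by 0.70 (adjusted p = 0.0354), which became -0.72 with the read totals (adjusted p = 0.125), while 6 were called lower beside 61.7% of all tested genes. Members of the 9 pathway lists with a call numbered 0 of 60 tested in NP@M against PBS and 0 of 60 in NP-D@MP against NP-D@M.

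**Figure D4:**
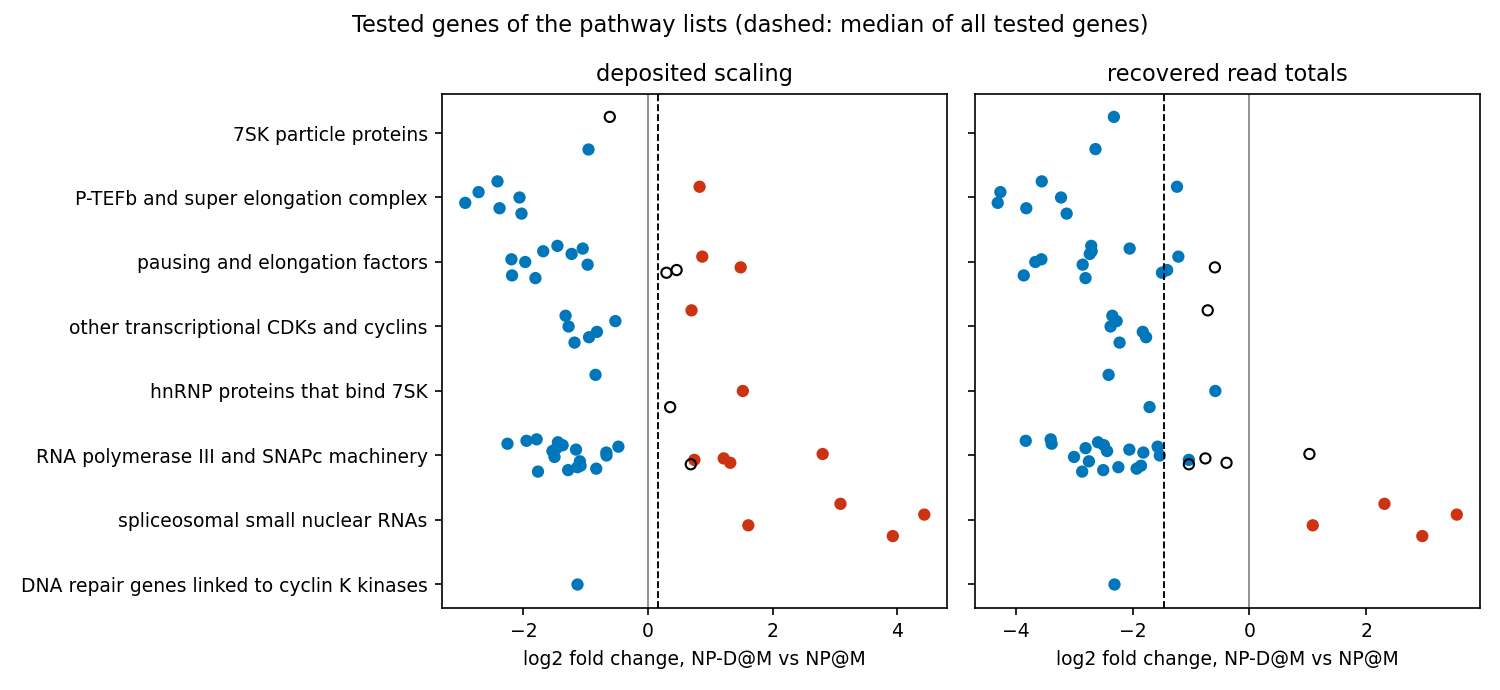
Log2 fold changes of FPKM + 1 in NP-D@M against NP@M (horizontal axis) for the tested genes of 8 pathway lists, 1 point per gene, with the deposited scaling on the left and recovered read totals on the right. Red points were called higher, blue lower, open points not called, and the dashed line is the median of all tested genes (0.16 and -1.47). Most lists lie to the left of that median, and the spliceosomal RNAs, which passed the filter on low values only through libraries with D, to its right.

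RNA polymerase III makes 7SK together with SNAPc, and only some of its listed factors serve promoters of the 7SK type. Of 23 tested genes of RNA polymerase III, its initiation factors and SNAPc (29 listed, 25 in the table), 18 fell and 4 rose, beside 46.0% and 45.2% of all tested genes, with a median of -1.13. Brf2, the initiation factor for promoters of the 7SK type, had 216 to 226 reads in NP@M and 0 in each NP-D@M library. Its log2 fold change was -1.53 (adjusted p = 5.70e-07 by limma). With 0 reads there, it did not pass the filter on low values through the NP-D@M libraries. The TFIIIC subunit genes Gtf3c4 and Gtf3c5, which serve other polymerase III genes, changed by -2.25 and -1.45. Those that rose were Snapc5 (2.80), Polr3k (1.32), Crcp (1.21) and Polr1d (0.74). With the read totals 19 fell and 0 rose, beside 61.7% and 9.12% of all tested genes, and Snapc5 stood at 1.03 (adjusted p = 0.145).

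Other small RNAs had calls in both directions. Limma called 25 of 35 tested small RNA genes besides Rn7sk higher and 4 lower in NP-D@M against NP@M. Of all tested genes, 45.2% were called higher and 46.0% lower. With the read totals 22 rose and 4 fell, beside 9.12% and 61.7% of all tested genes. Of the 42 in the table, 19 had reads only with D. Any of these 19 that were tested passed the filter on low values only through libraries with D. The counts of calls above can include such genes and are not given as support. Summed over 23 small nuclear RNA genes, the reads were 37 to 207 without D and 107 to 356 with D, so the ranges overlapped. Summed over all 42 small RNA genes besides Rn7sk, they were 581 to 8990 without D and 3272 to 9897 with D. The lowest sum was that of PBS replicate 3. A single gene held up to 8779 reads in a library without D and up to 9387 in one with D. Such sums can rest on few genes and do not show how many rose. Gm25047, named after its values were seen, went the other way, with 34 to 181 reads without D and 0 with D. Of the 9 other transcripts of RNA polymerase III that were listed, 0 were analysed here. Of 15 listed spliceosomal RNA genes 4 were in the table, where Rnu5g had 0 reads in every library without D and 11 to 23 with D. Rnu1a1 had 0 to 2 reads without D and 6 to 48 with D, Rnu12 had 0 to 2 and 0 to 20, and Rnu2-10 had 0 to 1 and 0 to 12. These 4 passed the filter on low values only through libraries with D, so their calls are not given as support. These RNAs lack the poly(A) tails of messenger RNA, and the labels name a TruSeq RNA kit and total RNA as input without saying how RNA was selected. Ribosomal RNA genes took 0.0202% to 0.150% of the reads without D and 0.0639% to 0.150% with D, and mitochondrial genes 0.753% to 1.01% and 1.06% to 3.17%. The part of RNA selection in the rise of Rn7sk was not tested.

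Of 12 listed DNA repair genes linked to cyclin K kinases 10 were in the table, 9 of them too low for the test. The 1 tested was called lower in NP-D@M against NP@M under both scalings. Of all tested genes, 46.0% were called lower with the deposited scaling and 61.7% with the read totals, so this call does not set it apart.

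Many genes followed the same course as each of the 3. Over the 12 libraries, 1445 of the 8614 other tested genes (16.8%) had a Pearson correlation above 0.95 with Rn7sk, 2012 (23.4%) with Cdk13 and 1366 (15.9%) with Ccnk. These correlations of log2(FPKM + 1) describe mainly the split by D, and the libraries share the authors' scaling. The genes most like Rn7sk were Ppia (0.996), S100a10 (0.995), Fundc2 (0.994), Mgst1 (0.994) and Pgk1 (0.994). Most like Cdk13 were Osbpl11 (0.999), Fam53b (0.999), Ppp4r2 (0.998), Ggnbp2 (0.998) and Champ1 (0.998), and most like Ccnk were Nck1, Slu7, Rtf1, Cstf1 and Lima1 (0.993 to 0.992). Without PBS replicate 3 and NP@M replicate 2, 0 of the 5 stayed among the top 5 for Rn7sk, 1 for Cdk13 and 0 for Ccnk.

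Within groups the correlations between the 3 genes were low, but low values limit what this shows. Cdk13 stood at 0.109 to 0.190 FPKM in the libraries with D, where log2(FPKM + 1) moves little. Rn7sk had 0 to 12 reads in the libraries without D. A low correlation of these genes thus does not show that they vary apart. After group means were subtracted, the correlation over 12 libraries was 0.18 between Rn7sk and Cdk13, 0.27 between Rn7sk and Ccnk and 0.45 between Cdk13 and Ccnk. The most similar genes were then Tnfaip1 (0.908), Tpm1 (0.902), Pml (0.893), Gng2 (0.885) and Ppp2ca (0.884) for Rn7sk, and Ubp1 (0.926), Atp1b3, Wipf1 (0.882), Supt7l and Hnrnpk (0.873) for Ccnk. For Cdk13 they were Trappc8 (0.975), Afdn (0.970), Vcl (0.969), Epb41l2 (0.968) and Cdk17 (0.968), and 451 genes exceeded 0.9, against 3 for Rn7sk and 1 for Ccnk. Without the pair of libraries that stood apart, 1 of these 5 stayed for Cdk13 and 0 for each of the other genes.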

How the data were processed

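The authors deposited 1 table of FPKM values, a unit that its header does not name and that was read from the values. Multiplied by gene length, 100% of the values are whole multiples (within 0.05) of 1 step per library, which gave the recovered reads. Bowtie 0.12.2 and the build mm8 are named in the submitters' processing notes without their role. How genes were picked, reads counted and values scaled is not given in the sources used here. Gene identifiers matched GENCODE M21 on GRCm38 for 11665 of 11669 genes, with equal coordinates for 11219, the 3 genes included.

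Genes with at least 1 FPKM in at least 3 libraries (8615) entered a fit of log2(FPKM + 1) by limma (version 3.58.1, R 4.3.3). The model had 1 mean per group, took all 12 libraries and used the trend and robust options. Tests were 2-sided with Benjamini-Hochberg adjustment per comparison, and an adjusted p under 0.05 was a call. Fits with read totals and voom used the same genes. The fit was tested on simulated data. Exact tests used scipy 1.17.1 under Python 3.11.15, tables pandas 2.3.3 and numpy 2.4.6, and plots matplotlib 3.10.9. The genes and lists were chosen with earlier results of these data known. Named are the 3 genes, up to 3 members per list with the smallest adjusted p in NP-D@M against NP@M (all members of lists of up to 5 tested), the 5 genes most correlated with each, and others as marked or counted in groups of 5 or fewer. Some members of the lists that this rule would name are not reported here.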

Additional observations from a re-analysis of the deposited data

How the results depend on the processing

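In the 3 comparisons of a group with D against one without, each of the 3 genes kept its direction and its call under every alternative run that gave it a value. These were quantile normalization, equal medians, read totals, voom, both other filters, no trend, a pseudocount of 0.1, the 6 libraries alone, leaving out each library in turn and leaving out both libraries that stood apart. Cdk13 has no value under the filter of 5 FPKM in 3 libraries. In NP-D@M against NP@M the log2 fold change of Rn7sk ran from 5.78 (read totals) to 9.43 (pseudocount 0.1), that of Cdk13 from -6.51 (voom) to -1.17 (quantile normalization) and that of Ccnk from -4.01 (voom) to -1.07 (equal medians).

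In NP@M against PBS no alternative gave a call. Cdk13 turned to 0.031 and Ccnk to 0.019 without both libraries that stood apart, and leaving out 1 library gave -0.14 to 0.098 for Cdk13. The cause was not tested. Called genes numbered 0 in place of 1 there under every alternative except equal medians and read totals. In NP-D@MP against NP-D@M they numbered 1 with voom, 8 without a filter, 2 with a pseudocount of 0.1, 17 without both libraries that stood apart and 4 without NP-D@MP replicate 2. The stricter filter, which tests fewer genes, gave 4422 in place of 7855 in NP-D@M against NP@M, 4447 in place of 7882 in NP-D@MP against PBS and 4388 in place of 7788 in NP-D@M against PBS. The ratio differences stayed between 13.08 and 13.82, 11.01 and 11.77, and -2.16 and -1.94 without any 1 library, and were 12.66, 11.20 and -1.47 from FPKM + 0.1 in place of 13.43, 11.37 and -2.06. With 13 to 20 reads per library with D, counting limits the precision for Cdk13. No paired analysis was possible because the labels give the groups no shared replicate numbers.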

Other observations

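Genes that lie next to the 3 genes in GENCODE were looked up as well. Setd3, which encodes an actin histidine methyltransferase, starts 264 bases from Ccnk on the opposite strand (chromosome 12 from 108106431 to 108179314). Its reads were 1352 to 1936 without D and 1280 to 1645 with D, so the ranges overlapped, whereas those of Ccnk went from 739 to 995 down to 38 to 60. In NP-D@M against NP@M, Setd3 stood at a log2 fold change of 1.71 with the deposited scaling (adjusted p = 3.66e-06 by limma) and at -0.32 with the read totals (adjusted p = 0.0931). The difference between Setd3 and Ccnk was not tested. C920006O11Rik, a non-coding gene that starts 280 bases from Rn7sk on the opposite strand, had 0 to 7 reads without D and 0 to 4 with D and was below the filter on low values. These neighbours were named after their values were seen.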
